A study of Mus musculus with 4 samples.

Results

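The genes described here are the G1 cyclins and the cyclin-dependent kinase (CDK) inhibitors of the mouse spleen: the D cyclins Ccnd1, Ccnd2 and Ccnd3, the E cyclins Ccne1 and Ccne2, the kinase Cdk6, and the inhibitors Cdkn1a, Cdkn1b, Cdkn1c and Cdkn2c. They were listed by name, and all 10 were present among the 27998 genes of the deposited table. The cells were CD11b+ splenocytes of mice 8 to 12 weeks old, profiled by CITE-seq, which reads RNA and antibody tags from the same cell. One library came from untreated mice (steady state) and 1 from mice given 3 once-daily subcutaneous injections of 10 µg granulocyte-macrophage colony-stimulating factor (GM-CSF), with cells taken 24 h after the last (GM-conditioned). No genetic change is given for these mice, the study's unmodified mice were C57BL/6, and the number of mice per library is not given in the sources used here. With 1 library per condition, an effect of GM-CSF and a difference between libraries cannot be told apart, no test between conditions was made, and cells were not treated as replicates.

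D cyclins bind CDK4 and CDK6 in G1 and start the phosphorylation of the retinoblastoma protein, which frees E2F factors to switch on genes of DNA synthesis, among them the E cyclins that activate CDK2. The Cip/Kip inhibitors p21 (Cdkn1a), p27 (Cdkn1b) and p57 (Cdkn1c) bind cyclin-CDK complexes, and the INK4 inhibitor p18 (Cdkn2c) binds CDK4 and CDK6 alone. Blood lineages are known to differ in the D cyclin they use, p21 is a classical target of p53, and p27 is known for its abundance in cells that do not divide.

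Unique molecular identifiers (UMIs) count each captured RNA molecule once, and in this 3' assay no scaling by gene length is needed to set genes side by side. Capture can still differ between genes, and the shares and rankings of genes below are not corrected for it. A level below is a gene's UMI total in a set of cells, scaled to 1000000 UMIs (CPM), with exact Poisson 95% intervals, and shares carry exact binomial (Clopper-Pearson) intervals; both cover counting error only. Depth was 22358903 UMIs over 4827 cells in steady state (median 3371 per cell) and 35007567 UMIs over 6804 cells after GM-CSF (median 4916). Ccnd3 was the most abundant of the 10 genes with 13698 UMIs, followed by Cdkn1b with 7532, Ccnd1 with 4470, Cdkn1a with 3452, Ccnd2 with 3232, Cdkn2c with 1330, Cdk6 with 1018, Ccne1 with 518 and Ccne2 with 236. Cdkn1c was nearly absent, with 62 UMIs in 60 of 11631 cells.

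On the GRCm38 (mm10) build, the GENCODE annotation places Ccnd1 on chromosome 7 (144929931 to 144939925, minus strand), Ccnd2 on chromosome 6 (127125162 to 127152193, minus strand) and Ccnd3 on chromosome 17 (47505051 to 47599691, plus strand). Ccne1 lies on chromosome 7 (38097984 to 38107534, minus strand), Ccne2 on chromosome 4 (11191351 to 11204779, plus strand) and Cdk6 on chromosome 5 (3341485 to 3531008, plus strand). Cdkn1a lies on chromosome 17 (29090976 to 29100727, plus strand), Cdkn1b on chromosome 6 (134920401 to 134925513, plus strand), Cdkn1c on chromosome 7 (143458339 to 143461050, minus strand) and Cdkn2c on chromosome 4 (109660876 to 109667189, minus strand). All 10 genes are protein coding.

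Promoter sequences from RefSeq (GRCm38.p6) were at hand for 6 of the 10 genes, with 9 start sites in all. The sequences shown are those for the D cyclin and the inhibitor with the most UMIs (Ccnd3 and Cdkn1b) and for the E cyclin with a promoter at hand (Ccne1). Each runs up to the base before the first annotated start and 5′ to 3′ on the strand of the gene. Capitals mark the GC box GGGCGG on either strand.
Ccnd3, chr17:47504801-47505050, plus strand: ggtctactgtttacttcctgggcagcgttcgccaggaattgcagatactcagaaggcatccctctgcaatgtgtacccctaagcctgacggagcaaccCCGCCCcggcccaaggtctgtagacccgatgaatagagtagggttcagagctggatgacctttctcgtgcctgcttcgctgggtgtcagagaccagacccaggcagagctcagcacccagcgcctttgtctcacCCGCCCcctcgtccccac
Ccne1, chr7:38107535-38107740, minus strand: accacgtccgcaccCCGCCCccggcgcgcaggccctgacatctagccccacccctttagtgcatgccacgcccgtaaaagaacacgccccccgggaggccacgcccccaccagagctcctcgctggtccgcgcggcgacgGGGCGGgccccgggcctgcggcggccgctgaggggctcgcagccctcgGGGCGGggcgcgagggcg
Cdkn1b, chr6:134920151-134920400, plus strand: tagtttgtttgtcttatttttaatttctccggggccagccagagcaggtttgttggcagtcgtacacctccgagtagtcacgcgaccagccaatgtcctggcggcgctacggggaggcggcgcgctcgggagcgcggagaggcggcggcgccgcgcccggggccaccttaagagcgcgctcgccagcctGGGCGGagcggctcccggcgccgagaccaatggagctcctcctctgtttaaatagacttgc
The stretches hold 2, 3 and 1 GC boxes. In windows of 250 bases before the start, 6 of the 9 member promoters (5 of the 6 genes) held a GC box, against 32.7% of all 32851 promoters. The E2F forms TTTCCCGC, TTTCGCGC, TTTGCCGC and TTTGGCGC were found on neither strand in any of the 9 windows and in 1.86% of all promoters, which says only that these letters are not in these windows.

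The authors' 12 cell types were checked against marker genes. Neutrophil markers (9 of 9 detected) summed to 107085 and 103642 CPM in granulocytes and to 350678 and 279479 CPM in neutrophils (steady state and GM-conditioned), and to between 340 and 17440 CPM elsewhere. In the types named for them, B cell markers summed to 5326 and 5438 CPM, macrophage markers to 14385 and 13269.6 CPM, and T cell markers to 1920.4 and 2624 CPM. Progenitor DCs held 4 and 3 of 5 DC progenitor markers, with Cd34 at 0 in both libraries. The cDC2 markers were highest in this type in both libraries, at 1031 and 534 CPM with 7 of 7 detected. Flt3 is in both marker lists. These markers do not tell progenitors from cDC2s, so progenitor DC is used below only as the authors' name. The type named cDC2-A went against its label. NK cell markers stood there at 19168 and 19911 CPM with 6 of 6 genes detected, cDC2 markers at 247 and 223 CPM with 5 and 2 of 7 detected, and 212 of its 214 steady-state cells held at least 10 NK marker UMIs; it is called cDC2-A below only as a name. The proliferating type MoMacDC_c4 held NK markers at 11946 CPM in steady state and 1.57 CPM after GM-CSF, and 27 of its 43 steady-state cells had at least 10 NK marker UMIs. Non-classical monocyte markers were highest in MoMacDC_c5 in both libraries, at 4597 and 2103 CPM. Classical monocyte markers were highest in MoMacDC_c1 in steady state (3214 CPM). After GM-CSF MoMacDC_c1 stood at 870 CPM for them, below neutrophils at 1480 CPM. The types MoMacDC_c1, c2, c4 and c5 (monocytes, macrophages and dendritic cells) and progenitor DCs were clustered again by the authors as a bundle of 6075 cells in 17 clusters, with a cell cycle phase and, for cells with high CD115 tags, a subset: P-I (classical monocytes), P-II (non-classical monocytes), P-III, and P-IV (the GM-CSF-induced dendritic cells). The subsets used here are the deposited ones, whose numbers of cells differ from those that the study lists for its subsets.

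Ccnd1, the D cyclin best known from growth factor responses, was highest in progenitor DCs in steady state and nearly absent from granulocytes and neutrophils. Progenitor DCs had 1181 CPM (1121 to 1243; 1459 UMIs) in the steady-state library and 485 CPM (460 to 510; 1445 UMIs) in the other, where activated DCs overlapped with them at 475 CPM (355 to 621; 53 UMIs, 20 of them in 1 cell). In steady state MoMacDC_c2 followed with 400 CPM (369 to 432), then macrophages with 311 (210 to 444) and activated DCs with 256 CPM (159 to 392), and the intervals of these last types overlapped. B cells stood at 21.7 CPM, MoMacDC_c4 at 13.4, MoMacDC_c5 at 6.97, MoMacDC_c1 at 4.62 and T cells at 4.13 CPM. Granulocytes (2.18 CPM, 8 UMIs) and neutrophils (0.916 CPM, 1 UMI) were at the bottom, and cDC2-A had no UMI, which allows up to 3.49 CPM (3 counts). A Ccnd1 UMI was seen in 146 of 152 steady-state progenitor DCs (96.1%, 91.6 to 98.5%; median 7014 UMIs per cell), against 1 of 146 neutrophils (0.685%; median 6461.5 UMIs), and with each cell thinned to 1000 UMIs the shares were 66.9% and 0.685%, with 1 and 0 cells left out.

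Ccnd2, a D cyclin well known from lymphocytes, was highest in cDC2-A and T cells. The type named cDC2-A had 983 CPM in steady state (918 to 1052; 844 UMIs) and 972 CPM after GM-CSF (744 to 1249; 61 UMIs), and T cells had 616 CPM (561 to 676) and 566 CPM (426 to 737). Activated DCs (391 CPM, 267 to 551) and macrophages (363 CPM, 253 to 505) came next in steady state, with overlapping intervals and only 32 and 35 UMIs. B cells (162 CPM, 137 to 191), progenitor DCs (145 CPM, 124 to 168) and granulocytes (131 CPM, 120 to 144) overlapped in the same way, while neutrophils had 12.8 CPM and MoMacDC_c1 had 10.7 CPM. Steady-state MoMacDC_c4 stood at 240 CPM (197 to 290), but 96 of its 108 Ccnd2 UMIs lay in the 27 cells with NK markers (363 CPM), and the other 16 cells were at 64.9 CPM (33.5 to 113).

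Ccnd3 was the D cyclin with the most UMIs, and its range over the types was narrower than those of Ccnd1 and Ccnd2. It was highest in neutrophils, with 413 CPM (376 to 453) in steady state and 429 CPM (411 to 448) after GM-CSF. In steady state cDC2-A (338 CPM, 300 to 379) and MoMacDC_c4 (334 CPM, 283 to 392) overlapped. Of the 150 UMIs of MoMacDC_c4, 104 lay in its 27 cells with NK markers (393 CPM), and cDC2-A carried these markers too. The other 16 cells were at 248.8 CPM (182.2 to 331.9), an interval that overlapped those of cDC2-A, granulocytes and MoMacDC_c5. Also in steady state, granulocytes (271 CPM, 254 to 288) overlapped with MoMacDC_c5 (258 CPM, 237 to 280). MoMacDC_c1 (218 CPM), MoMacDC_c2 (199 CPM), T cells (191 CPM) and progenitor DCs (171 CPM) followed. Macrophages (104 CPM), B cells (94.7 CPM) and activated DCs (85.4 CPM) had the lowest levels, with overlapping intervals.

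The share of each D cyclin in their summed UMIs told which of them led in each lineage. In neutrophils Ccnd3 made up 96.8% of D cyclin UMIs in steady state (94.7 to 98.2%) and 98.3% after GM-CSF (97.7 to 98.8%). It made up 93.4% and 89.7% in MoMacDC_c1, 86.0% and 83.0% in MoMacDC_c5, and 67.0% (64.5 to 69.3%) and 82.4% (80.2 to 84.3%) in granulocytes, where nearly all of the rest was Ccnd2. Ccnd2 made up 74.4% and 70.1% in cDC2-A, 75.9% and 79.7% in T cells, and 58.2% (51.7 to 64.5%) and 45.2% (29.8 to 61.3%) in B cells. Ccnd1 led in progenitor DCs, with 78.9% (77.0 to 80.7%) and 74.4% (72.4 to 76.3%). In MoMacDC_c2 the leading D cyclin differed between the libraries: Ccnd1 made up 61.5% in steady state (58.5 to 64.5%), and after GM-CSF Ccnd3 made up 76.3% (74.5 to 78.0%), with 191 CPM against 53.8 CPM for Ccnd1. Activated DCs also changed leader, from Ccnd2 (53.3%) to Ccnd1 (79.1%, 67.4 to 88.1%), but on 60 and 67 UMIs from 8 and 20 cells, with 20 of the 53 Ccnd1 UMIs after GM-CSF in 1 cell.

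Bundle clusters drew the same lines in finer detail, and since they were made from the expression of all genes in these cells, their levels are a description. Ccnd1 led in clusters 9, 12 and 14 in both libraries, with 78.6% and 77.9%, 82.0% and 67.1%, and 73.2% and 76.2% of D cyclin UMIs. The level in cluster 9 was 1085 CPM in steady state and 693 CPM after GM-CSF, and in cluster 12 it was 1035 and 276 CPM. Clusters 5 and 6 were almost pure in Ccnd3 (99.3% and 99.2%, and 99.4% and 98.1%). Clusters 0 and 3 were led by Ccnd1 in steady state (68.4% and 61.6%) and by Ccnd3 after GM-CSF (81.1% and 74.0%); cluster 0 held 14 and 668 cells in the 2 libraries and cluster 3 held 88 and 512. Cluster 8 had 39.7% Ccnd2 in steady state (81 UMIs) and 1.42% after GM-CSF. All 28 of its steady-state cells were MoMacDC_c4, where 96 of 108 Ccnd2 UMIs lay in the 27 cells with NK markers. The NK-marked cells were not split by cluster. Cluster 16 was led by Ccnd2 (91.3%, 63 UMIs in 15 steady-state cells), although 22 of those UMIs came from 1 cell, and cluster 13 had 29 steady-state cells without a Ccnd2 UMI and 47 UMIs in 19 GM-conditioned cells, 16 of them in 1 cell.

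**Figure D1:**
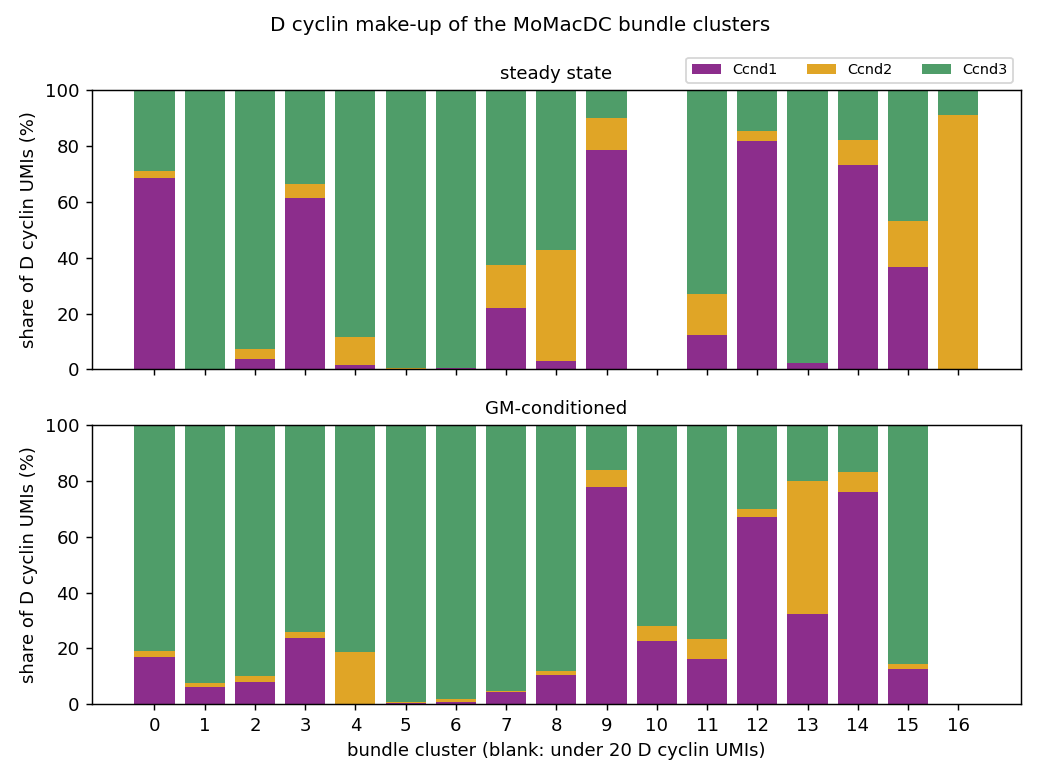
Share of D cyclin UMIs (percent, 0 to 100) from Ccnd1, Ccnd2 and Ccnd3 in each of the 17 bundle clusters, steady state above and GM-conditioned below; bars are left blank under 20 D cyclin UMIs. Clusters 9, 12 and 14 are mostly Ccnd1 in both libraries, and clusters 0 and 3 are mostly Ccnd1 only in the upper panel (68.4% and 61.6%).

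The E cyclins were found mainly in the proliferating types. Ccne1 stood in MoMacDC_c4 at 57.9 CPM (37.8 to 84.8) in steady state and 37.0 CPM (32.1 to 42.3) after GM-CSF, in progenitor DCs at 5.66 and 25.5 CPM, and in neutrophils at 5.50 and 10.3 CPM. Granulocytes had 1 and 2 UMIs. Ccne2 was also highest in MoMacDC_c4, with 31.2 (17.03 to 52.3) and 19.9 CPM (16.4 to 23.9). In progenitor DCs its levels were 8.09 and 8.05 CPM, and in neutrophils 3.67 (4 UMIs) and 12.8 CPM (63 UMIs). In steady-state MoMacDC_c4, 18 Ccne1 UMIs and 11 Ccne2 UMIs lay in the 27 cells with NK markers. The other 16 cells were at 43.3 CPM for Ccne1 (18.7 to 85.3; 8 UMIs) and 16.2 CPM for Ccne2 (3.35 to 47.4; 3 UMIs). No Ccne2 UMI was found in T cells, B cells, macrophages or activated DCs of either library, which in the most deeply covered of these groups, steady-state B cells, allows up to 3.42 CPM.

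Cdk6, the partner of the D cyclins that is prominent in blood cells, was at most 61.0 CPM in steady state. In steady state neutrophils (48.6 CPM, 36.4 to 63.5) and B cells (47.9 CPM, 34.5 to 64.8) had overlapping levels, as had MoMacDC_c5 (34.9 CPM), MoMacDC_c2 (34.4 CPM) and cDC2-A (32.6 CPM), and granulocytes had the lowest level, 8.71 CPM (5.96 to 12.3). After GM-CSF neutrophils had 27.6 CPM (23.1 to 32.6), MoMacDC_c1 had 14.2 and MoMacDC_c2 had 14.0 CPM. Progenitor DCs had 24.3 CPM in steady state (30 UMIs) and 2.35 CPM after GM-CSF (7 UMIs), a ratio of 0.102 (0.0359 to 0.225). The ratio was 0.0910 in cluster 9 (2 against 18 UMIs) and 0.0851 in cluster 12 (5 against 10 UMIs), both on few UMIs. In both clusters the share of cells in phase G2/M was higher after GM-CSF. The part of clusters and phases in the lower Cdk6 level was not tested. Activated DCs and macrophages had at most 6 Cdk6 UMIs in a library.

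Among the inhibitors, only Cdkn1b was found in every type of both libraries, and granulocytes had the most. Granulocytes stood at 398 CPM in steady state (378 to 419) and 285 CPM after GM-CSF (264 to 307), followed by MoMacDC_c5 with 256 (235 to 278) and 166 CPM (128 to 212). T cells had 198 CPM in steady state, progenitor DCs 161, B cells 144 and MoMacDC_c2 128 CPM. In steady state neutrophils (96.2 CPM) and MoMacDC_c1 (103 CPM) overlapped, and MoMacDC_c4 was lowest with 62.3 CPM (41.4 to 90.1) from 28 UMIs. Of those 28 UMIs 15 lay in its 27 cells with NK markers, and the other 16 cells were at 70.3 CPM (37.4 to 120). MoMacDC_c4 was not lowest after GM-CSF, with 88.0 CPM (80.5 to 96.0) against 78.1 CPM (72.4 to 84.2) in MoMacDC_c1. Neutrophils thus had a lower level than granulocytes in both libraries, with ratios of 0.243 (0.196 to 0.295) and 0.322 (0.286 to 0.363).

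Cdkn1a was highest in activated DCs, MoMacDC_c5 and MoMacDC_c1. Activated DCs had 195 CPM in steady state (112 to 317) and 421 CPM after GM-CSF (309 to 560) from 16 and 47 UMIs, MoMacDC_c5 had 126 (112 to 142) and 143 CPM (108 to 186), and MoMacDC_c1 had 109 (103 to 116) and 77.7 CPM (71.9 to 83.8). MoMacDC_c4 and MoMacDC_c2 had 80.1 and 69.5 CPM in steady state, with overlapping intervals, but 30 of the 36 UMIs of MoMacDC_c4 lay in its 27 cells with NK markers (113 CPM), and the other 16 cells were at 32.5 CPM (11.9 to 70.6). B cells (34.2 CPM, 30 UMIs) and macrophages (20.8 CPM, 2 UMIs) had UMIs in steady state and none after GM-CSF. Progenitor DCs were far lower (24.3 and 13.4 CPM), as were granulocytes (9.52 and 15.3 CPM), neutrophils (15.6 and 12.4 CPM) and T cells (6.88 CPM in steady state and no UMI after GM-CSF). In cluster 13 the level was 196 CPM in steady state and 430 CPM after GM-CSF, where 19 of the 63 UMIs came from 1 of 19 cells.

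Cdkn2c was concentrated where the E cyclins were. MoMacDC_c4 had 129 CPM (98.0 to 167) in steady state and 108 CPM (99.7 to 117) after GM-CSF, progenitor DCs 29.9 and 72.1 CPM, cDC2-A 25.6 CPM in steady state, and neutrophils 23.8 (15.6 to 34.9) and 24.1 CPM (19.97 to 28.8). In steady-state MoMacDC_c4, 46 of the 58 UMIs lay in the 27 cells with NK markers (174 CPM, 127 to 232), and the other 16 cells were at 64.9 CPM (33.5 to 113; 12 UMIs). Granulocytes had 1.09 and 1.24 CPM (4 and 3 UMIs), so neutrophils were 19.8-fold (7.59 to 86.3) and 16.7-fold (6.48 to 95.4) higher than granulocytes. Cdkn1c reached 11.1 CPM in steady-state MoMacDC_c4 from 5 UMIs (3.61 to 26.0) and at most 3.25 CPM in any other type and library; its 62 UMIs could not order the lineages.

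**Figure D2:**
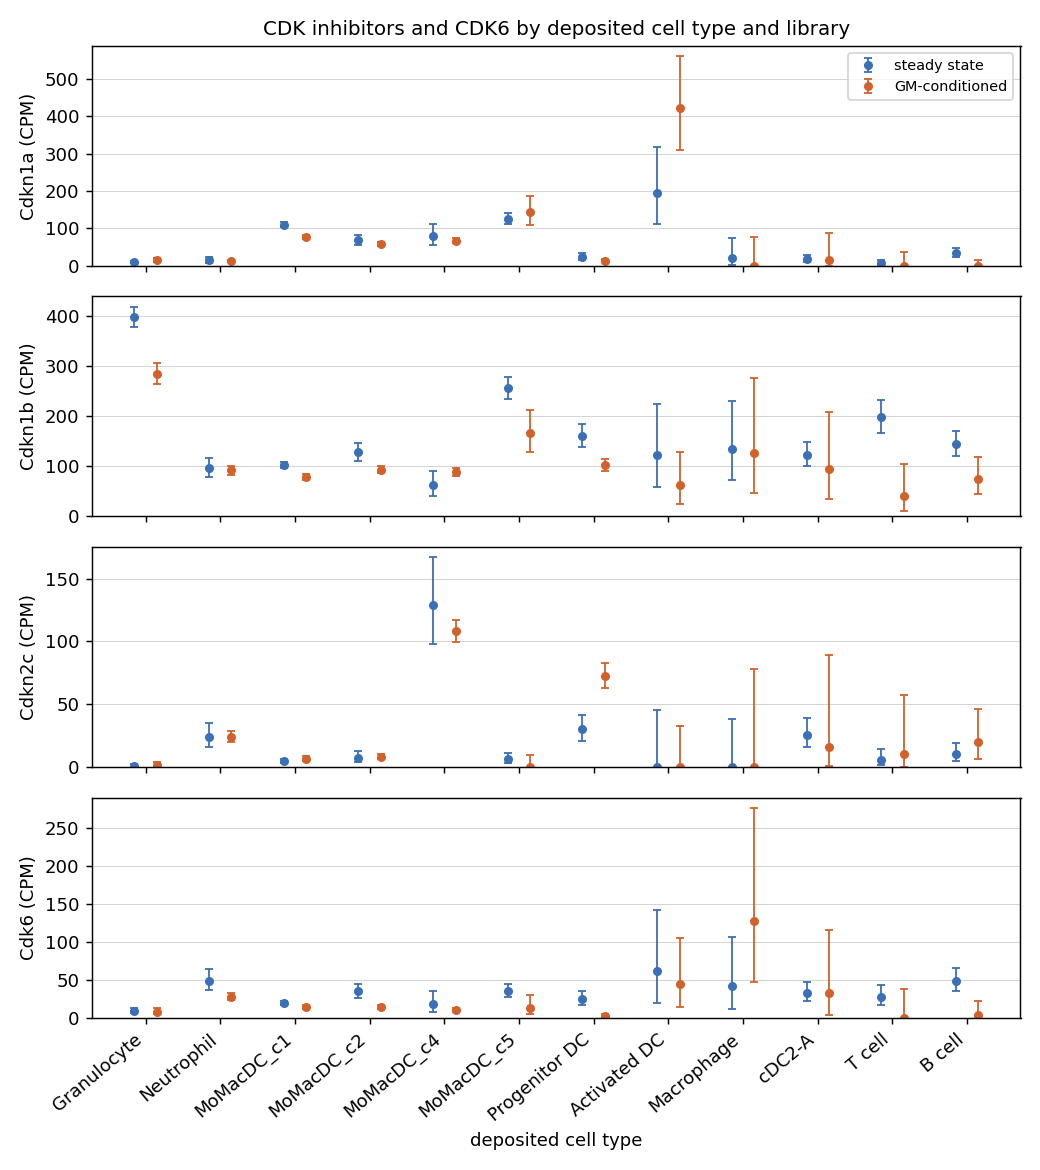
CPM of Cdkn1a, Cdkn1b, Cdkn2c and Cdk6 (vertical axes from 0, one scale per gene) in the 12 deposited cell types, 1 point per library with exact Poisson 95% intervals. Cdkn1b is highest in granulocytes (398 and 285 CPM), Cdkn2c in MoMacDC_c4 (129 and 108 CPM, the first being 64.9 CPM without the cells that carry NK markers), and Cdkn1a in activated DCs, MoMacDC_c5 and MoMacDC_c1.

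The share of each inhibitor in their summed UMIs was read in the same way. Cdkn1b made up 97.3% (96.4 to 98.1%) and 94.1% (92.1 to 95.7%) of inhibitor UMIs in granulocytes, and 94.1% in steady-state T cells. In neutrophils it made up 70.9% (62.9 to 78.1%) and 71.6% (67.9 to 75.0%), with 17.6% and 18.8% from Cdkn2c. MoMacDC_c1 divided its UMIs between Cdkn1a (50.2% and 47.5%) and Cdkn1b (47.3% and 47.8%). In MoMacDC_c4 Cdkn2c was the largest part, with 45.7% (36.8 to 54.7%) and 40.6% (38.1 to 43.1%). It was not the largest part in the 16 steady-state cells of that type below the NK marker minimum, which held 13 UMIs of Cdkn1b, 12 of Cdkn2c, 6 of Cdkn1a and 2 of Cdkn1c. Progenitor DCs were led by Cdkn1b with 74.5% (68.9 to 79.6%) and 54.1% (49.9 to 58.2%), and after GM-CSF Cdkn2c made up 38.1%. Their clusters differed: in the GM-conditioned library Cdkn2c was 9.94% of inhibitor UMIs in cluster 9 and 50.3% in cluster 12, and cluster 12 held 12.5% of steady-state and 38.4% of GM-conditioned progenitor DCs.

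The 2 libraries were compared by the CPM ratio of the GM-conditioned to the steady-state library, with 0.5 counts added to each sum, for genes with at least 50 UMIs over both; a ratio of at least 2 or at most 0.5 was counted. In granulocytes 0 of the 5 members with enough UMIs passed this limit, and 10.5% of all 6257 genes did. Ccnd3 had the ratio furthest above 1, 1.71 (1.57 to 1.87), Cdkn1b had 0.716 (0.653 to 0.784) and Ccnd2 had 0.735 (0.626 to 0.861). All 3 ratios were short of 2-fold with intervals that left out 1. The median depth of these granulocytes was 1770 UMIs per cell in steady state and 1229 after GM-CSF.

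In neutrophils 1 of 7 members passed, against 6.10% of all genes. That member was Ccne2, with 4 UMIs (3.67 CPM) among 146 steady-state cells and 63 UMIs (12.8 CPM) among 893 GM-conditioned cells, a ratio of 3.12 (1.29 to 13.2). Cdk6 had a ratio of 0.564 (0.410 to 0.795), and the ratios of Ccnd3 (1.04, 0.937 to 1.15), Cdkn1b (0.950, 0.770 to 1.19) and Cdkn2c (0.997, 0.658 to 1.61) had intervals around 1.

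Of the 6 members tested in P-I cells (139 steady-state and 187 GM-conditioned), 3 passed, against 12.1% of all genes. Cdkn2c stood at 8.24 CPM (9 UMIs) and 39.4 CPM (55 UMIs), a ratio of 4.58 (2.35 to 11.02). Among P-I cells in G1 it stood at 8.77 and 10.1 CPM (7 and 8 UMIs), and 42 of the 55 GM-conditioned UMIs lay in the 44 cells of phase G2/M, a phase that held 3.597% of steady-state and 23.5% of GM-conditioned P-I cells. Ccnd1 stood at 45.8 and 5.74 CPM, a ratio of 0.132 (0.0513 to 0.267), but 32 of its 50 steady-state UMIs came from 1 cell, and without that cell the ratio was 0.360 on 26 UMIs. Cdk6 was at 29.3 CPM (32 UMIs) and 13.6 CPM (19 UMIs), a ratio of 0.470 (0.249 to 0.846), and 0.577 without the cell that held most of its UMIs. Cdkn1b went from 135 to 82.5 CPM (ratio 0.614, 0.476 to 0.788), and Cdkn1a (0.910) and Ccnd3 (0.929) had intervals around 1.

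Other types added values for the same contrast. Ccnd1 had a ratio of 0.135 (0.119 to 0.152) in MoMacDC_c2 and 0.411 (0.382 to 0.442) in progenitor DCs. Progenitor DCs held 15 of 152 cells in G2/M in steady state and 170 of 393 after GM-CSF, and among those in G1 Ccnd1 stood at 1247 and 783 CPM. Neutrophil markers in progenitor DCs summed to 9238 and 2102 CPM, and their part in the result was not tested. Within single bundle clusters it was 0.158 (0.133 to 0.189) in cluster 3, 0.0869 (0.0636 to 0.122) in cluster 0, 0.639 (0.586 to 0.696) in cluster 9 and 0.266 (0.227 to 0.312) in cluster 12. MoMacDC_c1 had low levels and the opposite direction, 4.62 and 12.6 CPM. Ccnd2 in MoMacDC_c4 had the lowest ratio, 0.0105 (108 against 14 UMIs), in the type whose steady-state cells carried NK markers; from the 16 steady-state cells without them (64.9 CPM) to the GM-conditioned cells (2.44 CPM) the level was still lower after GM-CSF. Cdkn1a had ratios of 0.710 (0.644 to 0.783) in MoMacDC_c1, 0.828 in MoMacDC_c2 and 1.14 in MoMacDC_c5, and Cdkn1b had ratios between 0.635 and 0.759 in MoMacDC_c1, c2, c5 and progenitor DCs.

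**Figure D3:**
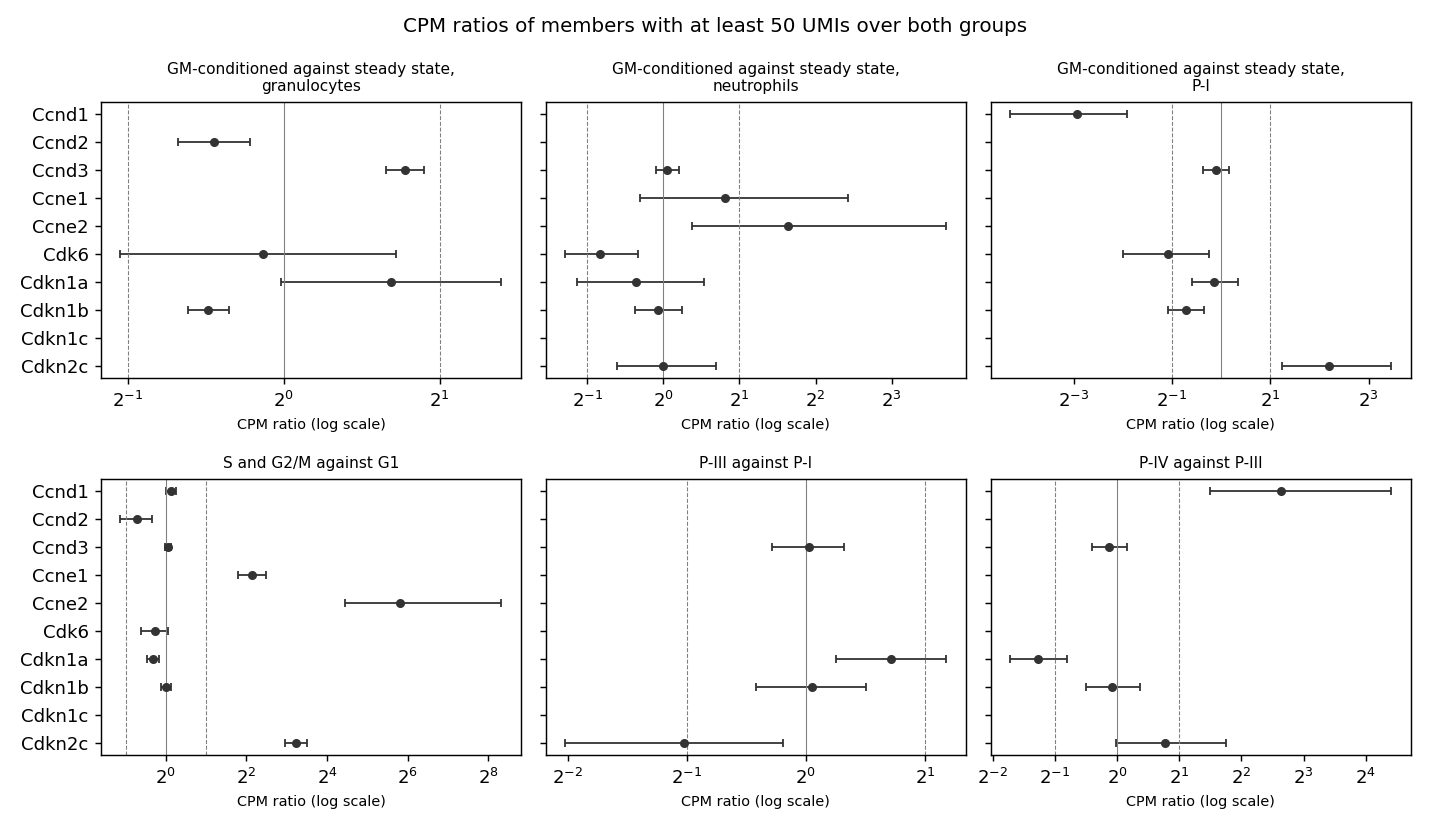
CPM ratios (log scale, 1 at the solid line, 2-fold at the dashed lines) of the members with at least 50 UMIs over both groups in 6 comparisons, with exact intervals of counting error as bars; each panel has its own horizontal scale. Ratios past 2-fold are those of Ccne2 in neutrophils, Ccnd1, Cdk6 and Cdkn2c in P-I, Ccne1, Ccne2 and Cdkn2c in S and G2/M, Cdkn2c in P-III, and Ccnd1 and Cdkn1a in P-IV.

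Cell cycle phases, deposited by the authors for the bundle, were scored from S and G2/M genes that include Ccne2, so the level of Ccne2 by phase is a description of the score; the other 9 members are not in those lists. In the GM-conditioned library 2523 cells were in G1, 660 in S and 757 in G2/M, with median depths of 6363, 6526.5 and 8758 UMIs. Of the 9 members with enough UMIs, 3 were at least 2-fold higher in S and G2/M together than in G1 and 0 were lower, against 8.26% of all 10279 genes; without Ccne2 it was 2 of 8. Ccne1 stood at 6.23 CPM in G1 (5.06 to 7.58), 40.5 CPM in S (34.8 to 46.9) and 18.6 CPM in G2/M (15.5 to 22.2). Cdkn2c was higher in each later phase, with 8.05 (6.72 to 9.57), 29.9 (25.0 to 35.4) and 105 CPM (97.1 to 113). Ccne2 stood at 0.189, 22.2 and 5.91 CPM. The joint ratios to G1 were 4.36 (3.48 to 5.55) for Ccne1 and 9.30 (7.74 to 11.3) for Cdkn2c, and 56.2 for Ccne2.

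The 2 genes peaked in different phases. Ccne1 was 2.17-fold higher in S than in G2/M (1.72 to 2.76), and Cdkn2c had a ratio of 0.286 (0.235 to 0.344). In steady state Cdkn2c showed the same order, with 5.35, 10.8 and 74.3 CPM in G1, S and G2/M, whereas Ccne1 stood at 0.175, 6.82 and 16.9 CPM, with 17 UMIs in S and 18 in G2/M and a ratio of S to G2/M of 0.403 (0.195 to 0.828). Of those UMIs, 7 in S and 11 in G2/M lay in the MoMacDC_c4 cells with NK markers. In the remaining cells Ccne1 was at 4.11 CPM in S (1.97 to 7.55; 10 UMIs) and 8.18 CPM in G2/M (3.29 to 16.9; 7 UMIs), with overlapping intervals, and Cdkn2c kept its order with 5.35, 9.45 and 43.2 CPM. Within MoMacDC_c4 of the GM-conditioned library Ccne1 was at 115 CPM in S and 20.1 in G2/M, and Cdkn2c at 78.7 and 114 CPM; within progenitor DCs Ccne1 was at 4.67, 72.2 and 18.5 CPM and Cdkn2c at 14.0, 57.4 and 111 CPM in G1, S and G2/M.

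Ccnd3, Ccnd1 and Cdkn1b varied less with the phase. After GM-CSF Ccnd3 stood at 186, 207 and 184 CPM in G1, S and G2/M, with a joint ratio to G1 of 1.04 (0.982 to 1.10), Ccnd1 at 76.4, 111 and 65.9 CPM (1.10, 1.01 to 1.20) and Cdkn1b at 89.3, 86.5 and 91.7 CPM (1.004, 0.925 to 1.09). In steady state Cdkn1b was lower in G2/M, at 137, 124 and 86.6 CPM (G2/M to G1 ratio 0.636, 0.507 to 0.781). Cdkn1a was somewhat lower outside G1, at 68.3, 61.8 and 49.8 CPM (0.798, 0.721 to 0.882), and in steady state at 107, 79.0 and 70.6 CPM. Cdk6 stood at 12.7, 17.4 and 5.91 CPM, so G2/M was at a ratio of 0.470 to G1 (0.323 to 0.655). Ccnd2 stood at 11.7, 14.0 and 2.51 CPM after GM-CSF but at 33.7, 30.1 and 80.9 CPM in steady state, where 73 of the 86 UMIs in G2/M came from MoMacDC_c4, the type with NK markers. Cdkn1c had 13, 5 and 18 UMIs, too few for the 2-fold count.

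Between the libraries, Ccne1 differed also among cells of the same phase. In G1 cells it had 2 UMIs in steady state (0.175 CPM) and 99 after GM-CSF (6.23 CPM), spread over 92 cells with at most 2 UMIs in a cell, a ratio of 28.5 (9.57 to 297). In S cells the ratio was 5.79 (3.61 to 10.4) and in G2/M cells 1.07 (0.667 to 1.91), where 11 of the 18 steady-state UMIs lay in cells with NK markers; the other steady-state G2/M cells were at 8.18 CPM, against 18.6 CPM after GM-CSF. Those G1 cells were mostly MoMacDC_c2 (55 of the 99 UMIs) and MoMacDC_c1 (38). Cdkn2c had ratios of 1.498 (1.10 to 2.08) in G1 cells and 2.72 (1.81 to 4.34) in S cells. In G1, S and G2/M the ratios of Ccnd3 were 0.852, 0.906 and 0.749, and those of Cdk6 were 0.566, 0.638 and 0.282.

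**Figure D4:**
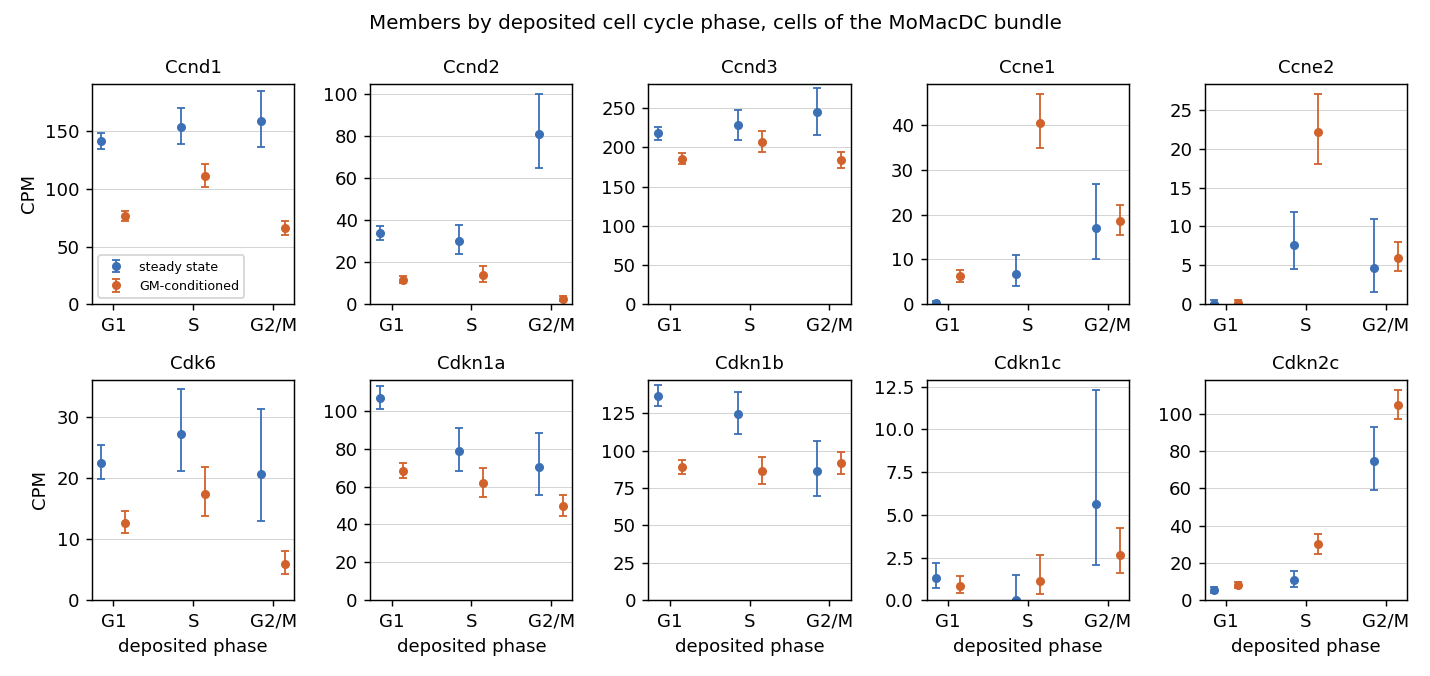
CPM (axes from 0, one scale per gene) of the 10 members in bundle cells of the deposited phases G1, S and G2/M, 1 point per library with exact Poisson 95% intervals. Ccne1 and Ccne2 are highest in S in the GM-conditioned library (40.5 and 22.2 CPM), Cdkn2c is highest in G2/M in both libraries (74.3 and 105 CPM), and Ccnd3 is level.

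Along the CD115hi subsets of the GM-conditioned library, the 126 P-III cells were set against the 187 P-I cells, and the 313 P-IV cells against P-III. Between P-I and P-III, 1 of 4 members tested passed 2-fold, against 3.82% of all genes: Cdkn2c, with 39.4 CPM (55 UMIs) in P-I and 18.9 CPM (14 UMIs) in P-III, a ratio of 0.493 (0.246 to 0.875), and 0.531 without the cell that held most of its UMIs. Phase G2/M held 23.5% of P-I and 7.94% of P-III cells. Cdkn1a stood at 61.7 and 101 CPM, a ratio of 1.65 (1.19 to 2.27), and Ccnd3 (188 and 191 CPM) and Cdkn1b (82.5 and 85.2 CPM) had ratios of 1.02 and 1.04 with intervals around 1.

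Between P-III and P-IV, 2 of 5 members tested passed, against 2.93% of all genes. Ccnd1 stood at 6.76 CPM in P-III (5 UMIs) and 45.8 CPM in P-IV (103 UMIs in 53 of 313 cells), a ratio of 6.19 (2.81 to 21.3). It was 7.55-fold (3.90 to 19.0) higher in P-IV than in P-I, which had 8 UMIs (5.74 CPM). Of the 103 UMIs 44 lay in cluster 0, 30 in cluster 8 and 18 in 2 cells of cluster 9, and 15 came from 1 cell, without which the ratio was 5.29. Among cells in G1 the levels were 4.14 CPM (2 UMIs) and 45.6 CPM (67 UMIs). Cdkn1a went the other way, with 101 CPM (75 UMIs) in P-III and 42.3 CPM (95 UMIs) in P-IV, a ratio of 0.416 (0.305 to 0.572); in G1 cells it was 0.387 (0.248 to 0.611). The subsets drew on different clusters, with 71 of the 126 P-III cells in cluster 1 (41 UMIs, 99.7 CPM) and 167 of the 313 P-IV cells in cluster 0 (41 UMIs, 34.7 CPM). Within cluster 1 the 41 P-IV cells had no UMI, and within cluster 8 P-III stood at 176 CPM (16 UMIs in 8 cells) and P-IV at 72.2 CPM (34 UMIs in 47 cells), whereas within cluster 0 the 20 P-III cells were lower, at 8.11 CPM from 1 UMI. Cdkn2c stood at 18.9 and 33.4 CPM (ratio 1.71, 0.988 to 3.38) and Ccnd3 at 191 and 175 CPM (0.915, 0.755 to 1.12). In steady state only 12 P-III and 7 P-IV cells were found, with 8 and 5 Ccnd1 UMIs, in each case all in 1 cell, and they were not compared, and neither were P-II cells (8 per library), whose highest members were Ccnd3 (11 UMIs after GM-CSF) and Cdkn1b (15 UMIs in steady state).

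Within the subsets of the GM-conditioned library some members followed the phase. S and G2/M cells had 7.42 times the G1 level of Cdkn2c in P-I (3.65 to 19.1) and 17.2 times in P-IV (8.42 to 47.3), and 4.18 times that of Ccne1 in P-IV (2.03 to 9.64). Cdkn1a, lower outside G1 in the bundle as a whole, was higher in S and G2/M than in G1 within each of these subsets. The ratio was 1.84 (1.18 to 2.91) for P-I, 1.74 (1.08 to 2.81) for P-III and 2.01 (1.31 to 3.07) for P-IV. Steady-state P-I cells did not show this direction, with 76.4 CPM in G1 (61 UMIs), 49.4 CPM in S (13 UMIs) and no UMI in the 5 cells in G2/M.

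A list of 31 further genes of the G1/S pathway was read beside the members. In S and G2/M against G1, 17 of 29 tested were at least 2-fold higher and 0 lower, with a median log2 ratio of 1.07 against -0.04 over all genes tested, of which 8.26% passed in either direction. Without E2f8, Cdk1, Ccnb2 and Cks1b, which are among the genes that made the phases, 13 of 25 were higher and 0 lower, with a median of 1.01. By total UMIs the leading ones were Cks1b, Ccnb2, Cdk1, the S and G2/M cyclin gene Ccna2, the INK4 inhibitor gene Cdkn2d and Cdk4. Ccna2 stood at 147 CPM against 1.01 in G1 (ratio 142, 89.9 to 257), Cdkn2d at 102 against 31.3 CPM (3.28, 2.95 to 3.65) and Cdk4 at 79.9 against 38.1 CPM (2.10, 1.89 to 2.33). In P-I cells after GM-CSF 8 of 20 were higher and 0 lower (median log2 ratio 0.57 against -0.10, and 12.1% of all genes past 2-fold), with Cks1b at 9.15 and 94.7 CPM, Cdk4 at 25.6 and 52.3 CPM, Ccng2 at 25.6 and 52.3 CPM, and Ccnb2 with no UMI in steady state (up to 2.75 CPM) and 112 CPM after GM-CSF. Ccna2 and Cdk1 each had 1 UMI in steady-state P-I cells, and 62.4 and 60.9 CPM after GM-CSF.

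In granulocytes 3 of 11 of the list were higher after GM-CSF and 0 lower, against 10.5% of all genes, namely Ccng1 (21.8 and 61.7 CPM), Cdc25b, a phosphatase that activates CDK1 (10.1 and 34.0 CPM), and Trp53, the gene of p53 (8.16 and 16.6 CPM; ratio 2.02, 1.23 to 3.38). In neutrophils 1 of 24 was higher, Cdc25b (10.1 and 21.3 CPM), against 6.10%. Between P-I and P-III 5 of 20 were lower and 0 higher, against 3.82%, among them Ccnb2 (112 and 36.5 CPM), Cks1b (94.7 and 43.3 CPM) and Cdkn2d (68.8 and 29.7 CPM), and between P-III and P-IV 0 of 23 passed in either direction, against 2.93%.

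The genes most like each member were sought over the 23 groups of deposited type and library with at least 20 cells, among 9751 genes with at least 200 UMIs, by Pearson's r of log2(CPM + 1). The groups share 2 libraries and differ in depth, so r is a description. Ccnd1 was closest to Dnase1l3 (r = 0.93), Adam23 (0.92) and Ube2e2 (0.89), Ccnd2 to Pik3r1 (0.82), Ugcg (0.80) and Gpbp1 (0.80), and Ccnd3 to Atp8b4 (0.88), Rab3d (0.87) and Tspan5 (0.87). Ccne1 was closest to Stmn1 (0.87), Ncapd2 (0.86) and C330027C09Rik (0.85), and Ccne2 to Pif1 (0.98), Sgol1 (0.97) and Mxd3 (0.97). Cdk6 had no gene above 0.76 (Letmd1, then Slc39a9 with 0.75). Cdkn1a was closest to Evi5 (0.92), Adap1 (0.88) and Selm (0.86), Cdkn1b to Gpcpd1 (0.86), Il1b (0.86) and Crebrf (0.85), and Cdkn2c to Clspn (0.93), Hist1h4d (0.91) and Ppil1 (0.89). Cdkn1c had too few UMIs to be compared.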

How the data were processed

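Per the labels, RNA and tag libraries were made from CD11b+ splenocytes, 1 steady-state and 1 GM-conditioned; the tag counts were not used here. The authors aligned the RNA reads with Cell Ranger 3.0.2 on mm10, excluded cells outside 200 to 5000 genes or above 15% mitochondrial reads, clustered them in Seurat 3.6.0 and deposited raw UMI counts, cell types, bundle clusters, CD115hi subsets, phases and the percent of mitochondrial reads per cell. The bundle's counts equalled those of the whole table, and 8 cell barcodes occurred in both libraries.

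Counts were summed per group as deposited, over cells mapped to libraries by the deposited condition. Ratios carry an exact binomial interval. Every gene with at least 50 UMIs over both groups was tested in each comparison, and a ratio of at least 2 or at most 0.5 counted as past the limit. This rule and the intervals were tried on simulated Poisson counts. Those counts hold no spread between cells or libraries, so the trial says nothing about such spread. The pathway genes named were those past 2-fold, at most 6 per comparison by total UMIs, and the genes most like a member were the 3 with the highest r, of which 1 is not reported here. NK-marked cells, the genes that scored the phases and the cell with the most UMIs of a gene were set aside in alternatives chosen after seeing the data. Doublets were called with Scrublet in scanpy 1.11.5 (152 and 186 cells) and left out only as an alternative. Other alternatives were thinning to 1000 UMIs, a 10% mitochondrial limit, other minimums and counts added, G1 cells alone and phases scored without Ccne2. The members and lists were chosen with earlier results of these data known. Python 3.11.15, scipy 1.17.1, numpy 2.4.6 and pandas 2.3.3 were used.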

Additional observations from a re-analysis of the deposited data

Results flagged for a closer look

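Ccnd1 differed between libraries in opposite directions in different types. The CPM ratio of the GM-conditioned to the steady-state library was 2.70 (1.901 to 3.96) in MoMacDC_c1, where the level was 4.62 and 12.6 CPM, but 0.135 (0.119 to 0.152) in MoMacDC_c2 and 0.411 (0.382 to 0.442) in progenitor DCs. With 1 library per condition the difference between these types was not tested. Different clusters held MoMacDC_c1 in the libraries: clusters 5 (34.5%), 2 (23.8%) and 6 (23.3%) in steady state, and clusters 1 (38.2%) and 2 (21.6%) after GM-CSF. Within cluster 2 the levels of Ccnd1 were 6.88 and 13.6 CPM, from 15 and 27 UMIs, 10 of the latter in 1 cell.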

How the results depend on the processing

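No paired analysis was possible because each condition has 1 library. With cells thinned to 1000 UMIs, the members past 2-fold were 0 in neutrophils, P-I, P-III against P-I and P-IV against P-III, and 1 in S and G2/M against G1; 1 to 6 members then had enough UMIs, and in neutrophils Ccne2 turned to 0.9402 on 9 UMIs. With a minimum of 1 UMI the counts were 2 in granulocytes, 2 in neutrophils and 7 in P-I, and with 20 UMIs 2 in neutrophils. In G1 cells alone they were 0 in P-I and 0 in P-III against P-I, which was also 0 with a 10% mitochondrial limit and with 1 count added. Without the cell with the most UMIs, chosen after seeing the data, they were 1 in P-I and 0 in P-III against P-I. The phase count was 1 with phases scored without Ccne2 on thinned cells and 1 in the steady-state library.

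With cells weighted equally, Ccnd3 made up 69.7% of D cyclins in steady-state granulocytes and 96.4% and 92.4% in MoMacDC_c1, Ccnd2 70.7% in steady-state T cells, and Ccnd1 70.1% in GM-conditioned progenitor DCs. Cdkn1b then made up 85.2% and 81.3% of inhibitors in neutrophils and 80.4% and 62.6% in progenitor DCs, and Cdkn1a 40.4% and 37.0% in MoMacDC_c1 (steady state and GM-conditioned). Thinned, Ccnd1 was 76.3% in steady-state progenitor DCs, Ccnd2 80.6% in steady-state T cells, and Ccnd3 96.0% in steady-state MoMacDC_c1 and 84.9% in GM-conditioned granulocytes. After GM-CSF, thinned Cdkn1b was 86.4% in neutrophils and 67.8% in progenitor DCs, and Cdkn2c 35.9% in MoMacDC_c4. With doublets left out, Ccnd3 was 98.7% in steady-state neutrophils. The cause of these shifts was not tested beyond the lower counts that thinning leaves. Over all alternatives, 31 counts of members and 69 shares stayed close. In 22 cases the ratio of a single member kept its direction but was no longer past 2-fold or no longer had enough UMIs to be tested.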
